A study of Homo sapiens with 9 samples.

Results

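Interferon-stimulated genes are the genes that a cell switches on when it senses an interferon. A set of 49 of them, named by symbol, was followed in CAL27, an established line grown from a squamous carcinoma of the human tongue. Each of the 49 symbols matched 1 Ensembl gene, out of 78894 identifiers in the deposited tables, and all 49 were among the 17100 genes that reached 1 TPM in at least 2 libraries. TPM is a gene's share of the transcripts of a library, corrected for gene length. The series deals with an enhancer in head and neck squamous carcinoma, and its design sets cells edited with CRISPR beside unedited cells of the same line. The groups were Control (3 samples), A2ko, A8ko and C9ko (2 samples each), all grown in DMEM with serum and without treatment. The edited sequence and whether a knockout group is 1 clone or a pool are not given in the sources used here, so no edit could be checked from the level of a target.

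Both A2ko files held the same value for every identifier, as did both A8ko files, and such files were counted as 1 library. This left 7 distinct libraries, and values of A2ko and A8ko have no replicate. Differences are given on the scale log2(TPM + 1), which understates changes of weak genes, and sequencing depth is unknown because TPM does not keep it. Nothing in the labels says that the replicates came from separate cultures, so the p-values measure only the spread between these samples. All 7 squamous epithelial markers were present, with summed levels of 15046 to 16213 TPM in Control, 6384 TPM in A2ko, 7552 TPM in A8ko, and 9860.0 and 9662 TPM in C9ko. They did not move together. KRT5 and KRT14 were lower in every knockout (KRT14 by -3.62 in A2ko, -2.16 in A8ko and -1.61 in C9ko). CDH1 was higher in each (0.41, 0.44 and 0.74), and KRT17, TP63, EPCAM and SFN changed direction between knockouts. The leukocyte markers summed to 42.3 to 82.8 TPM, the fibroblast markers to 6.92 to 15.5 TPM and the endothelial markers to 3.51 to 30.1 TPM, with MS4A1 and COL3A1 at 0 in every library. Only CD14 and CD68 of the leukocyte list and CDH5 of the endothelial list reached 1 TPM in any library. Of the fibroblast list, COL1A1 and COL1A2 did. In A2ko COL1A1 differed from Control by 0.98 log2 units and COL1A2 by -0.34. In C9ko, CD14 and CDH5 were higher (1.66 and 2.51 log2 units) and CD68 lower (-1.01). Mitochondrially encoded genes made 23.1% to 26.9% of all TPM in Control, 20.2% and 17.9% in C9ko, 20.6% in A8ko and 25.2% in A2ko. These levels moved with the groups, and their part in the differences below was not tested. In bulk RNA, fewer cells of a type and less RNA per cell cannot be told apart.

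Interferons of the alpha, beta and lambda types bind receptors whose JAK kinases phosphorylate STAT proteins, among them STAT2, which join IRF9 in a complex that enters the nucleus. There it binds the interferon-stimulated response element, a repeated GAAA core upstream of target genes, while interferon gamma acts mainly through a different one, the gamma-activated sequence. The products block viruses at entry, at RNA copying and at translation, and many tumour lines keep some of these genes on without added interferon. In carcinomas the same genes are read as a sign of innate immune signalling.

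Promoter sequence was available for 40 of the 49 genes, in RefSeq windows on GRCh38.p14 that run from 250 bases before to 50 bases after a start site. The response element core (GAAA, any 2 bases, GAAA), searched on both strands, was found in 28 of the 40, or 70.0%. Of all 27305 genes with a window, 4.38% held it. The core of the gamma-activated sequence (TTC, any 3 bases, GAA), which reads the same on both strands, was found in 13 of the 40, or 32.5%, against 9.38% of all genes with a window. A match is a description of the letters and not a binding site. The 8 stretches below end at the base before the start site and run in the direction of the gene, with matches to either core in capitals. They are shown because they span large differences in each knockout, repeated cores, and a pair of neighbours with and without a match: ISG15 at chr1:1013347-1013496 (+), IFIT1 at chr10:89392473-89392622 (+), RSAD2 at chr2:6877627-6877776 (+), IFI6 at chr1:27672193-27672362 (-), IFI44L at chr1:78620268-78620447 (+), IFI27 at chr14:94110586-94110735 (+), SAMD9 at chr7:93117980-93118129 (-) and SAMD9L at chr7:93148386-93148535 (-).
ISG15: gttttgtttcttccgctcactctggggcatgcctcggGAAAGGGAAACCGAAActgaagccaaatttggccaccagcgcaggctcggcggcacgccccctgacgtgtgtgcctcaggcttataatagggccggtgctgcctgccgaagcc
IFIT1: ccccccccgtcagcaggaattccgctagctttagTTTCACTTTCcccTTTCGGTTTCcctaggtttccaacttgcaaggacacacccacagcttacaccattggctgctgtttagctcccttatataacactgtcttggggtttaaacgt
RSAD2: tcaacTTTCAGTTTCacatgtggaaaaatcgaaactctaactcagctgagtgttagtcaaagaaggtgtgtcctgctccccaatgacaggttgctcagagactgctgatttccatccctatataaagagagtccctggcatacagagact
IFI6: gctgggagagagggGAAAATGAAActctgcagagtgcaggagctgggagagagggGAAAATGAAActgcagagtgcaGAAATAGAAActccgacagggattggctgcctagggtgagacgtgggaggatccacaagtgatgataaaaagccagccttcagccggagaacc
IFI44L: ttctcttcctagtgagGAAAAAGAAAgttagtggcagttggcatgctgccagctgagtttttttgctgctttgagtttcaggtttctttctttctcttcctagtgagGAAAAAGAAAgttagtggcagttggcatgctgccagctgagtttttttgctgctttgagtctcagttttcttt
IFI27: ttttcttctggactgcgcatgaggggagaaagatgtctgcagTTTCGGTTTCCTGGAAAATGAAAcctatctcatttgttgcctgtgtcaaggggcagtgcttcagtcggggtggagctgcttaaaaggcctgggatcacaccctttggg
SAMD9: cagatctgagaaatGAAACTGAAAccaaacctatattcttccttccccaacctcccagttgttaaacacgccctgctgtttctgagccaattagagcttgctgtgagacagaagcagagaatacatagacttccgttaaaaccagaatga
SAMD9L: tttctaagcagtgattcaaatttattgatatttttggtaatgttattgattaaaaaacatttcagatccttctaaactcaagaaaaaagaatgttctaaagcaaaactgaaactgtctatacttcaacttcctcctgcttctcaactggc

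ISG15 carried 2 response element matches that overlap in 1 run, and IFIT1 carried 2 on the opposite strand. IFI6 held 3 matches and IFI44L 2 identical ones in a repeated stretch. In IFI27 2 response element matches and 1 gamma-activated match run into each other. SAMD9L, the neighbour and paralog of SAMD9, had no match to either core in its window. Genes with and without a response element match were close in A2ko and A8ko: the median difference from Control was 0.28 (28 genes) and 0.26 (12 genes) in A2ko, -0.42 and -0.45 in A8ko, and, wider apart, 0.45 and 0.23 in C9ko. The 402 other tested genes that hold the core had medians of 0.09, 0.08 and 0.14. These medians are descriptions, with no test.

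Taken over all 49 genes, the level was higher in C9ko and in A2ko and lower in A8ko. The summed level was 6149, 6194 and 6228 TPM in Control, 7098 TPM in A2ko, 4221 TPM in A8ko, and 8288 and 8377 TPM in C9ko. IFITM3 alone made 30.9% to 33.9% of each sum, so the sum speaks mostly for a few abundant genes. The median gene differed from the Control mean on the log2 scale by -0.44 in A8ko, 0.31 in A2ko and 0.45 in C9ko, where all 17100 tested genes had medians of 0.09, 0.12 and 0.11. The separate C9ko libraries had medians of 0.44 and 0.48, and a Control library held against the other 2 had medians between -0.06 and 0.06. All 3 comparisons share the Control libraries, and the values stand side by side only as descriptions.

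In C9ko against Control, the moderated test of limma with Benjamini-Hochberg adjustment over all 17100 genes called 33 of the 49 genes higher, where 22.0% of all tested genes were called higher. The same test called 1 gene, IFITM2, lower, where 7.42% of all genes were. After scaling each library by the median of its ratios, limma called 26 higher and 2 lower, where 15.4% of all tested genes were higher and 12.8% lower, and over all genes the share of calls that were higher went from 74.8% to 54.6%. The 33 rises ran from 0.20 to 1.91 log2 units, with a median of 0.62, and 4 of them reached 1 log2 unit (background 3.25%; 1.72% lower). A2ko and A8ko had no replicate, so a gene was counted there when all 3 Control libraries lay on the same side of it and their mean was 1 log2 unit or more away. By this rule 8 genes were higher in A2ko (background 3.54% of all tested genes) and 0 lower (1.53%). They were MX2, IFIT1, IFIT2, OASL, IRF9, GBP2, IFI6 and IFI44L. In A8ko, 0 were higher (2.05%) and 11 were lower (2.68%): MX1, RSAD2, CMPK2, IRF9, IFI6, IFI27, IFI44L, XAF1, SAMD9, SAMD9L and TRIM22. C9ko had 4 higher (3.33%), namely RSAD2, CMPK2, OASL and XAF1, and 0 lower (1.78%). When limma took the spread of the other groups for the lone libraries, it called 22 higher (16.6%) and 1 lower (6.85%) in A2ko, and 0 higher (11.5%) and 27 lower (6.88%) in A8ko.

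Without the fold minimum, 35 genes lay above every Control library in A2ko (background 50.4%) and 9 below (26.3%). In A8ko 1 gene, DDX60, lay above (46.9%) and 45 lay below every Control library (26.4%). Both C9ko libraries lay above for 38 genes (41.1%) and below for 3 (16.4%), which were IFITM2, SAMD9 and SAMD9L. With scaling by the median of ratios the A2ko library gave 30 above and 12 below (38.9% and 37.9% of all tested genes), the A8ko library 0 and 48 (36.2% and 35.8%), and the C9ko libraries 33 and 6 (28.3% and 27.7%). In the unscaled values the median SD of the 3 Control libraries over the 49 genes was 0.08 log2 units, against 0.10 over all tested genes. A8ko was low for nearly the whole set, while A2ko and C9ko were high for parts of it.

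**Figure D1:**
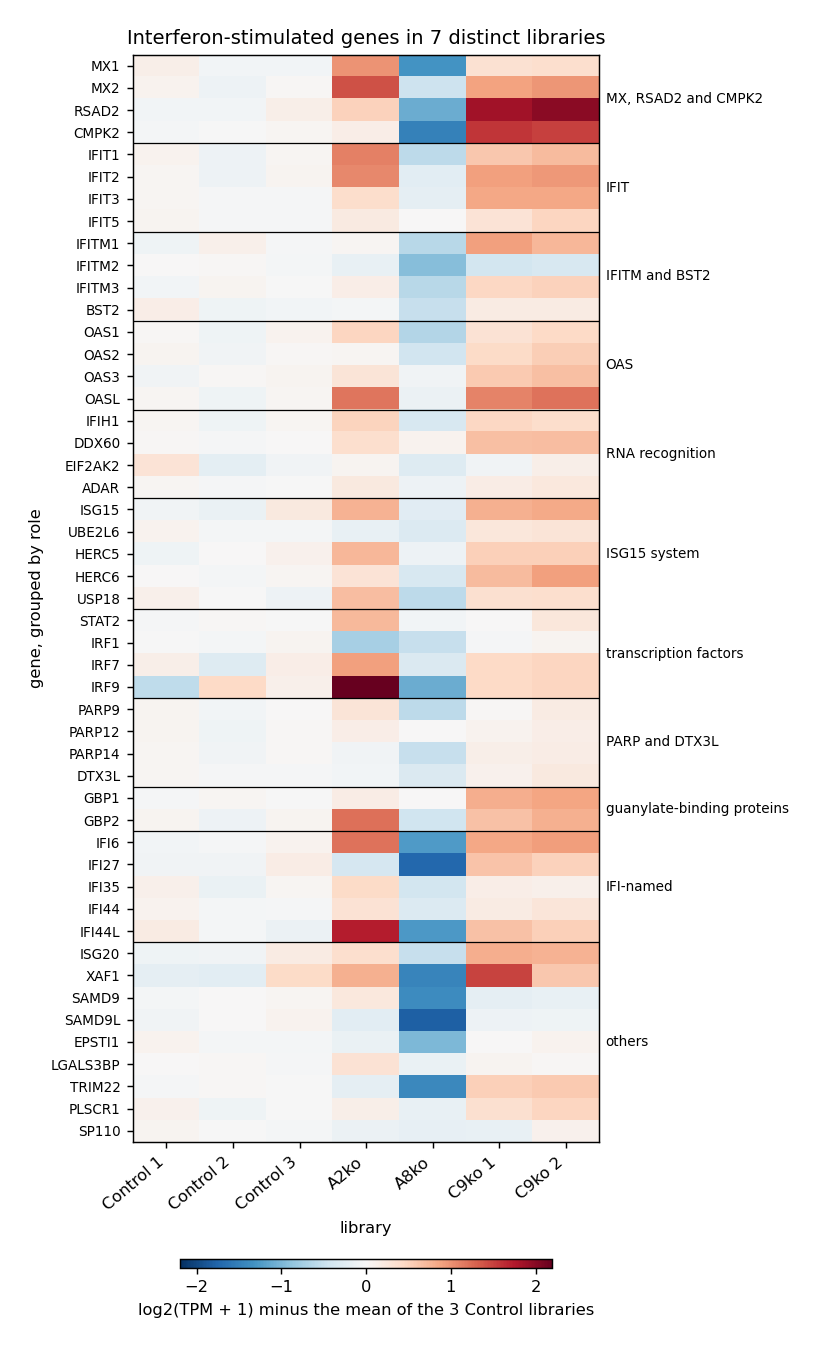
Heat map of the 49 interferon-stimulated genes (rows, grouped by role) in the 7 distinct libraries (columns). Colour is log2(TPM + 1) minus the mean of the 3 Control libraries, red for higher and blue for lower; the A8ko column is blue for 45 of 49 genes, and the darkest red cells are IRF9 in A2ko and RSAD2 in C9ko.

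**Figure D2:**
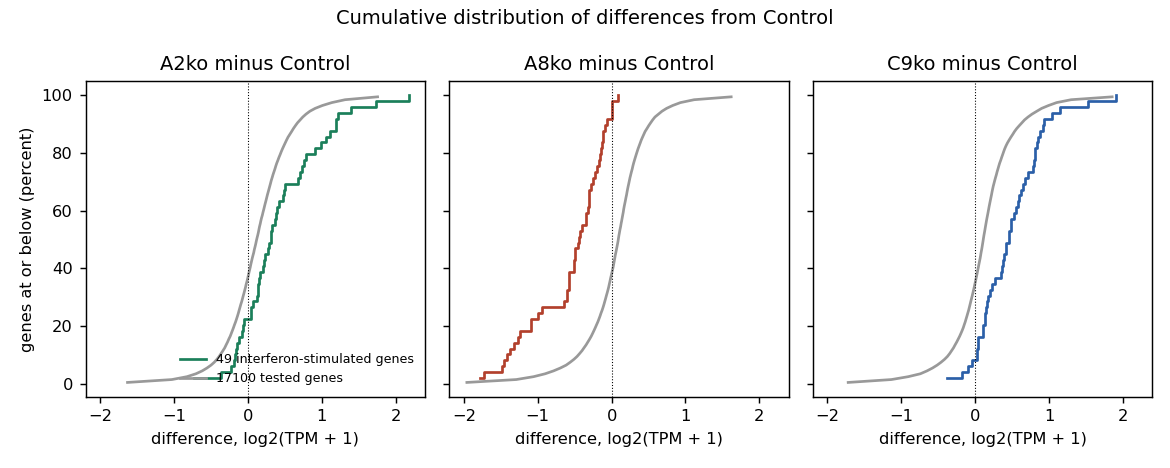
Cumulative percent of genes (y axis) at or below each difference from the Control mean in log2(TPM + 1) (x axis), in 1 panel per knockout. The coloured steps are the 49 interferon-stimulated genes, with a median of 0.31 in the A2ko panel, -0.44 in the A8ko panel and 0.45 in the C9ko panel, and the grey line is all 17100 tested genes, with medians of 0.12, 0.09 and 0.11.

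Among the effectors that act against viral RNA and particle assembly, RSAD2 and CMPK2 gave the largest rises in C9ko. RSAD2 (viperin, chr2:6865806-6898239) makes a chain-terminating nucleotide from CTP, and CMPK2 (chr2:6840570-6866635), its neighbour on the opposite strand, is a nucleotide kinase that supplies CTP. RSAD2 was at 7.07, 7.16 and 8.20 TPM in Control, 11 TPM in A2ko, 2.97 TPM in A8ko, and 29.4 and 32.4 TPM in C9ko. The C9ko libraries were the highest, A2ko lay above the Control range and A8ko below it, with no overlap. RSAD2 rose by 1.91 log2 units in C9ko (SE 0.09, limma adjusted p = 3.54e-05). CMPK2 was at 8.96, 9.21 and 9.47 TPM in Control, 10.2 TPM in A2ko, 2.66 TPM in A8ko, and 29.2 and 27.9 TPM in C9ko. It rose by 1.53 log2 units in C9ko (SE 0.07, limma adjusted p = 3.48e-05). The order of the groups was the same in both genes, and their annotated ends overlap on opposite strands, so reads in the overlap can be split between them if strand was not used.

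MX1 and MX2 encode dynamin-like GTPases that trap viral nucleocapsids and, for MX2, block nuclear import of retroviruses. MX1 (chr21:41420304-41459214) was at 90.0, 78.7 and 79.1 TPM in Control, 165 TPM in A2ko, 32.5 TPM in A8ko, and 104 and 106 TPM in C9ko. Here A2ko, not C9ko, was the highest library, at 0.99 log2 units above the Control mean, and A8ko stood 1.32 log2 units lower (-1.32). MX1 rose by 0.35 log2 units in C9ko (SE 0.08, limma adjusted p = 0.0162), a call that was lost in 6 of 13 alternative settings, among them the fits without Control replicate 3, C9ko replicate 1 or C9ko replicate 2 (limma adjusted p = 0.0564, 0.0598 and 0.0792). MX2 (chr21:41361943-41409390) was at 12.2, 10.6 and 11.8 TPM in Control, 32.0 TPM in A2ko, 8.16 TPM in A8ko, and 22.0 and 23.7 TPM in C9ko. MX2 rose by 0.93 log2 units in C9ko (SE 0.08, limma adjusted p = 0.000403), and A2ko lay 1.40 above the Control mean.

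The IFIT genes, which stand in a row on chromosome 10, encode proteins that bind viral RNA lacking the host cap marks and stop its translation. All 4 were called higher in C9ko, where 22.0% of all tested genes were. IFIT1 was at 22.8, 19.8 and 22.2 TPM in Control, 47.5 TPM in A2ko, 14.1 TPM in A8ko, and 33.2 and 35.7 TPM in C9ko. IFIT2 was at 39.2, 35.1 and 39.4 TPM in Control, 80.1 TPM in A2ko, 32.3 TPM in A8ko, and 71.3 and 74.2 TPM in C9ko. For both genes A2ko was the highest library and A8ko the lowest, and no group overlapped Control. IFIT3 was at 94.1, 89.8 and 89.1 TPM in Control, 119 TPM in A2ko, 79.1 TPM in A8ko, and 164 and 166 TPM in C9ko. IFIT3, a binding partner of IFIT1, was thus highest in C9ko. Their rises in C9ko were 0.65 for IFIT1 (SE 0.08), 0.92 for IFIT2 (SE 0.07) and 0.85 for IFIT3 (SE 0.06), with limma adjusted p of 0.00159, 0.000228 and 0.000127. IFIT5 rose by 0.39 in C9ko (limma adjusted p = 0.0134; 0.0835 without C9ko replicate 2), a call lost in 3 of 13 settings, and its A8ko level of 16.9 TPM was within the Control range. IFIT1, IFIT2 and IFIT3 lie within the bounds of LIPA on the other strand, and related family members can share reads.

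IFITM1, IFITM2 and IFITM3 encode small membrane proteins that hinder fusion of viruses with the cell, and they lie side by side on chromosome 11. IFITM3 (chr11:319669-327537) was the most abundant of the 49 genes, at 1914, 2089 and 1981 TPM in Control, 2198 TPM in A2ko, 1306 TPM in A8ko, and 2741 and 2836 TPM in C9ko. It rose by 0.48 log2 units in C9ko (limma adjusted p = 0.00446). IFITM1 was at 356, 413 and 372 TPM in Control, 389 TPM in A2ko, 248 TPM in A8ko, and 708 and 629 TPM in C9ko. A2ko sat inside the Control range of IFITM1, and C9ko was 0.81 log2 units above the Control mean (SE 0.09, limma adjusted p = 0.000857). IFITM2 (chr11:307631-315272) went the other way in C9ko, from 281, 286 and 272 TPM in Control to 210.2 and 219 TPM, and stood at 250.1 TPM in A2ko and 145 TPM in A8ko. It fell by 0.38 in C9ko (SE 0.06, limma adjusted p = 0.00423). The annotated span of IFITM2 covers that of IFITM1 on the same strand and their sequences are alike, so the split of reads between them is uncertain. BST2 (tetherin), which holds budding particles at the cell surface, was at 318 to 373 TPM in Control, 326 TPM in A2ko, 238 TPM in A8ko, and 381 and 384 TPM in C9ko, with no call in C9ko (limma adjusted p = 0.159).

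**Figure D3:**
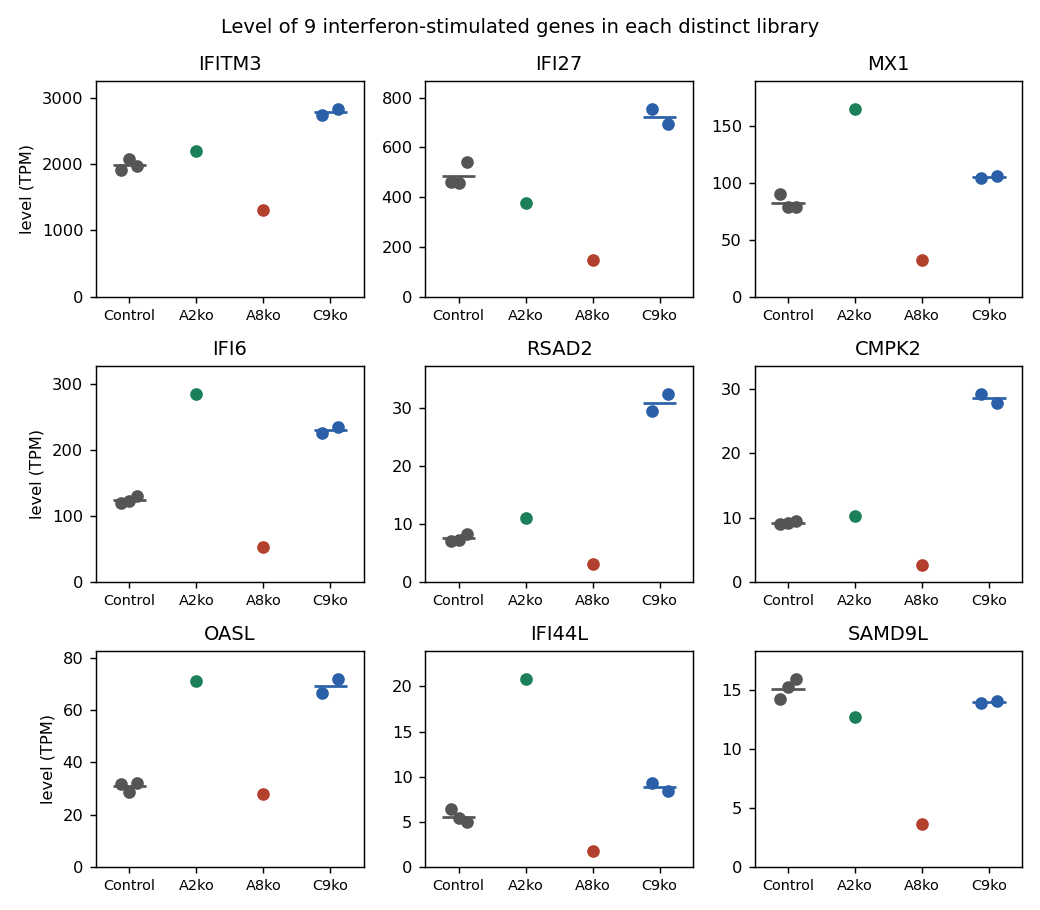
Levels in TPM (y axis, from 0) of 9 interferon-stimulated genes in each distinct library of Control, A2ko, A8ko and C9ko (x axis); points are libraries and short lines are means of groups with more than 1 library. A8ko is the lowest library in all 9 panels, C9ko the highest for IFITM3, IFI27, RSAD2 and CMPK2, and A2ko the highest for MX1, IFI6 and IFI44L.

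The OAS genes encode enzymes that sense double-stranded RNA and make the messenger that activates RNase L. All 4 were called higher in C9ko, where 22.0% of all tested genes were. OASL, the family member without that enzyme activity, was at 31.8, 28.7 and 31.9 TPM in Control, 71.3 TPM in A2ko, 28 TPM in A8ko, and 66.8 and 71.9 TPM in C9ko. A2ko and C9ko were alike for OASL and A8ko lay just under the Control range. OASL rose by 1.14 in C9ko (SE 0.08, limma adjusted p = 0.000113). OAS1, OAS2 and OAS3 rose by 0.38, 0.48 and 0.62 in C9ko, and their A8ko differences were -0.64, -0.43 and -0.09. The OAS1 call was lost in 2 of 13 settings, including without C9ko replicate 2 (limma adjusted p = 0.0767).

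Of the other proteins that meet foreign or altered RNA, IFIH1 (MDA5), a sensor of long double-stranded RNA, rose by 0.42 in C9ko and DDX60, a helicase that aids such sensors, by 0.67. ADAR, which edits adenosine to inosine in double-stranded RNA, was at 135, 129 and 131 TPM in Control, 153 TPM in A2ko, 121 TPM in A8ko, and 147 and 154 TPM in C9ko. Its rise of 0.20 in C9ko was the smallest of the 33 (SE 0.06, limma adjusted p = 0.0471) and was lost in 9 of 13 alternative settings, among them each fit without 1 Control or C9ko library (limma adjusted p from 0.071 to 0.219). EIF2AK2 (PKR), the kinase that halts translation, ran from 29.5 to 42.5 TPM in Control, and the C9ko levels of 32.7 and 37.6 TPM lay inside that spread (limma adjusted p = 0.917).

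The ISG15 system attaches a ubiquitin-like protein to targets: ISG15 is the modifier, UBE2L6 the conjugating enzyme, HERC5 the human ligase, HERC6 its relative, and USP18 the protease that removes ISG15 and dampens the receptor. All 5 were called higher in C9ko, where 22.0% of all tested genes were. With scaling by the median of ratios, ISG15, HERC5 and HERC6 were still called. UBE2L6 and USP18 were not (limma adjusted p = 0.129 and 0.0814). ISG15 (chr1:1001138-1014540) was at 148, 139.8 and 181 TPM in Control, 264 TPM in A2ko, 130.4 TPM in A8ko, and 268 and 277 TPM in C9ko. ISG15 rose by 0.81 in C9ko (SE 0.11, limma adjusted p = 0.00233), and A2ko lay just under both C9ko libraries. UBE2L6 was at 295, 272 and 269 TPM in Control, 247 TPM in A2ko, 225 TPM in A8ko, and 332 and 338 TPM in C9ko. Unlike ISG15, UBE2L6 was below the Control range in A2ko, and its C9ko rise of 0.26 (limma adjusted p = 0.0252) was lost in 8 of 13 alternative settings, including without Control replicate 2, Control replicate 3 or either C9ko library (limma adjusted p from 0.0662 to 0.118). HERC5, HERC6 and USP18 rose by 0.52, 0.80 and 0.36 in C9ko, and the A2ko differences were 0.73, 0.31 and 0.68. The USP18 call was lost in 7 of 13 alternative settings, including without Control replicate 2, Control replicate 3 or either C9ko library (limma adjusted p from 0.0599 to 0.0946).

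The transcription factors of the response moved apart from each other in A2ko. In A8ko all 4 lay below every Control library, as did 26.4% of all tested genes. The A8ko difference was only -0.06 for STAT2 and was -0.32 for IRF7. IRF1, which is induced early and also by interferon gamma, was at 126, 123 and 132 TPM in Control, 75.7 TPM in A2ko, 89.3 TPM in A8ko, and 125 and 132 TPM in C9ko. Both A2ko and A8ko lay below the Control range, by 0.74 and 0.50 log2 units (-0.74 and -0.50), and C9ko overlapped Control (difference 0.02, SE 0.06, limma adjusted p = 0.852). STAT2 was at 48.7, 50.4 and 49.1 TPM in Control, 81.2 TPM in A2ko, 47.2 TPM in A8ko, and 49.5 and 59.0 TPM in C9ko. A2ko was the highest library, and the C9ko libraries were 1 inside and 1 above the Control range. IRF7, the amplifier of type I interferon production, was at 9.53, 6.96 and 9.70 TPM in Control, 17.0 TPM in A2ko, 6.72 TPM in A8ko, and 12.1 and 12.4 TPM in C9ko. IRF7 rose by 0.46 in C9ko (SE 0.14, limma adjusted p = 0.0491), a call lost in 8 of 13 alternative settings, including without Control replicate 1, Control replicate 3 or either C9ko library (limma adjusted p from 0.0577 to 0.158).

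IRF9, the DNA-binding partner of STAT2 in that complex, gave the largest difference of any of the 49 genes in A2ko. Its level (chr14:24161053-24166565) was 6.25, 13.4 and 10.6 TPM in Control, 47.4 TPM in A2ko, 4.0 TPM in A8ko, and 13.4 and 13.8 TPM in C9ko. The A2ko value stood 2.18 log2 units above the Control mean, but the Control libraries themselves varied by 35.8% (coefficient of variation). A readthrough gene, ENSG00000259529, overlaps IRF9 on the same strand, and the sum of both, chosen after their values were seen, was 16.1, 16.6 and 17.3 TPM in Control, 51.4 TPM in A2ko, 10.8 TPM in A8ko, and 23.3 and 22.6 TPM in C9ko. The Control variation of the sum was 3.40%. On the sum, A2ko lay 1.57 above the Control mean and A8ko -0.58 from it, which is short of the fold minimum that IRF9 alone met in A8ko (-1.09). The C9ko libraries, which overlapped Control for IRF9 alone, lay above all Control libraries on the sum, by 0.44.

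XAF1, a promoter of apoptosis, also varied between the Control libraries and overlaps another annotated gene. XAF1 (chr17:6755447-6775647) was at 7.91, 7.74 and 12.7 TPM in Control, 16.6 TPM in A2ko, 2.72 TPM in A8ko, and 27.6 and 14.5 TPM in C9ko. Its C9ko libraries differed by 0.88 log2 units, the widest gap of the 49 genes, where the median gap was 0.07. The rise of 1.04 (SE 0.29, limma adjusted p = 0.0376) was lost in 6 of 13 alternative settings. Without C9ko replicate 1 it was 0.60 (limma adjusted p = 0.153), and it was also lost without Control replicate 1 or 2 (limma adjusted p = 0.1 and 0.108). PRAL, an RNA gene annotated on the other strand across XAF1, was at 0.273 and 16.4 TPM in the same C9ko libraries. Whether reads were divided between XAF1 and PRAL was not tested. Summed with PRAL, again a choice made after the values were seen, XAF1 gave 20.4, 21.0 and 19 TPM in Control, 35.0 TPM in A2ko, 5.94 TPM in A8ko, and 27.8 and 30.9 TPM in C9ko. The sum put C9ko 0.52 above Control, near the median of the 49 genes, and left A8ko at -1.61.

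**Figure D4:**
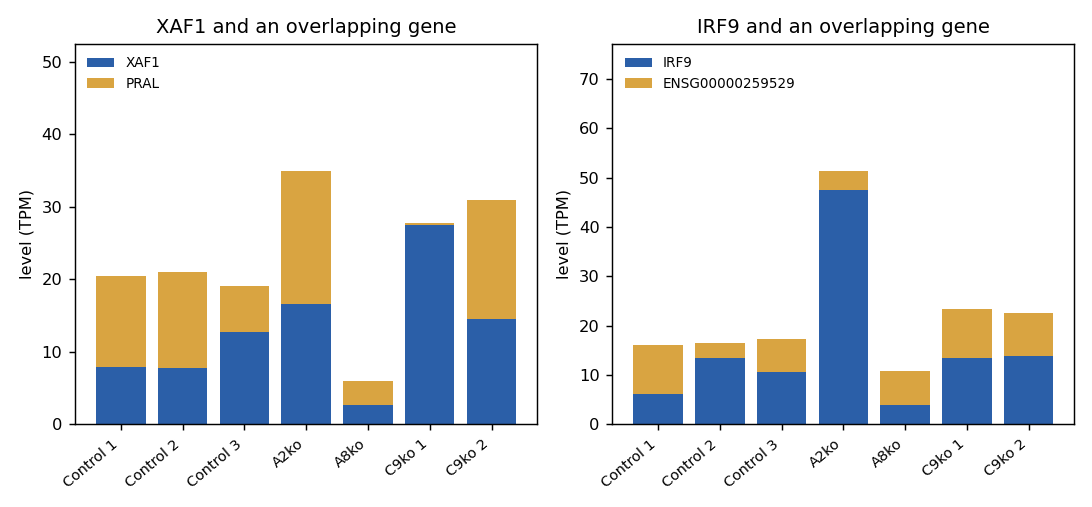
Level in TPM (stacked bars from 0) of XAF1 with PRAL and of IRF9 with ENSG00000259529 in each distinct library. The Control bars vary by 29.7% for XAF1 and 35.8% for IRF9 alone, and by 4.97% and 3.40% as sums; A2ko is the tallest bar and A8ko the shortest in both panels.

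The genes named for their induction by interferon had a median difference of -1.24 in A8ko, 0.42 in A2ko and 0.57 in C9ko. IFI27 (chr14:94104836-94116698), a small mitochondrial and nuclear envelope protein, was at 459.6, 458 and 543 TPM in Control, 376 TPM in A2ko, 146 TPM in A8ko, and 754 and 692 TPM in C9ko. A8ko stood 1.73 log2 units lower than the Control mean (-1.73), A2ko was also below the Control range, and IFI27 rose by 0.57 in C9ko (SE 0.10, limma adjusted p = 0.00503). IFI6 (chr1:27666061-27672218), a membrane protein of the same family, was at 119.7, 123 and 131 TPM in Control, 285 TPM in A2ko, 52.1 TPM in A8ko, and 225 and 235 TPM in C9ko. So IFI6 and IFI27 lay on opposite sides of Control in A2ko and on the same sides in A8ko and C9ko. IFI6 rose by 0.88 in C9ko (SE 0.07, limma adjusted p = 0.000168). IFI44L (chr1:78619922-78646145) was weaker, at 6.39, 5.38 and 4.95 TPM in Control, 20.8 TPM in A2ko, 1.72 TPM in A8ko, and 9.27 and 8.45 TPM in C9ko. A2ko lay 1.73 above and A8ko -1.27 from the Control mean, and IFI44L rose by 0.59 in C9ko (SE 0.12, limma adjusted p = 0.00998; 0.0568 without C9ko replicate 1). IFI44, its neighbour and paralog, moved less, with differences of 0.31, -0.30 and 0.22. Its call in C9ko was lost in 8 of 13 settings, including without Control replicate 2, Control replicate 3 or either C9ko library (limma adjusted p from 0.0855 to 0.22).

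A pair on chromosome 7, SAMD9 and SAMD9L, was low in A8ko and did not rise in C9ko. Their products cut transfer RNA and restrain poxviruses and cell growth. SAMD9L (chr7:93130055-93148369) was at 14.2, 15.3 and 15.9 TPM in Control, 12.7 TPM in A2ko, 3.66 TPM in A8ko, and 13.9 and 14.1 TPM in C9ko. With -1.79 log2 units it gave the lowest A8ko difference of the 49 genes. SAMD9 (chr7:93099513-93118023) was at 42.5, 44.0 and 45.4 TPM in Control, 51.7 TPM in A2ko, 16.3 TPM in A8ko, and 38.1 and 39.1 TPM in C9ko. Both C9ko libraries lay below Control for both genes, by margins limma did not call (adjusted p = 0.0692 for SAMD9 and 0.364 for SAMD9L); SAMD9 was called lower in 2 alternative settings. TRIM22, a ubiquitin ligase that limits several viruses, was at 22.2, 23.1 and 22.6 TPM in Control, 19.7 TPM in A2ko, 7.86 TPM in A8ko, and 33.0 and 34.2 TPM in C9ko. TRIM22 rose by 0.55 in C9ko (limma adjusted p = 0.00116), and it overlaps TRIM5 on the other strand.

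Guanylate-binding proteins are GTPases that coat vacuoles of intracellular pathogens. GBP1 was at 56.2, 58.4 and 56.3 TPM in Control, 63.8 TPM in A2ko, 57.1 TPM in A8ko, and 100.1 and 105 TPM in C9ko, so that C9ko stood farthest from Control. GBP2 was at 15.9, 14.1 and 16 TPM in Control, 36.8 TPM in A2ko, 11 TPM in A8ko, and 24.5 and 27.0 TPM in C9ko. GBP1 rose by 0.83 and GBP2 by 0.71 in C9ko (limma adjusted p = 0.000146 and 0.00126). The 4 genes PARP9, PARP12, PARP14 and DTX3L, which encode ADP-ribosyltransferases and a ubiquitin ligase partner, had no call in C9ko and differences of 0.11 to 0.16. In A8ko 3 of them were lower, by -0.57 for PARP9, -0.50 for PARP14 and -0.31 for DTX3L. PARP12 was at 79.4, 71.5 and 77.5 TPM in Control, 84.1 TPM in A2ko, 76.6 TPM in A8ko, and 80.0 and 84.0 TPM in C9ko, so that A8ko lay inside the Control range and the others just above it.

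The remaining genes were spread between these patterns. ISG20, an exonuclease for RNA, and PLSCR1, a membrane scramblase, rose by 0.78 and 0.42 in C9ko. The PLSCR1 call was lost in 3 of 13 settings, including without C9ko replicate 2 (limma adjusted p = 0.0583). EPSTI1 was lower in A8ko at 5.07 TPM against 10.8 to 11.7 TPM in Control, and it was at 11.1 and 11.7 TPM in C9ko. IFI35, LGALS3BP and SP110 were not called in C9ko, with differences of 0.13, 0.04 and -0.04. LGALS3BP, a secreted glycoprotein and among the 3 most abundant of the set in Control, was at 483 to 502 TPM in Control, 617 TPM in A2ko, 445 TPM in A8ko, and 513 and 504 TPM in C9ko.

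Set directly against A8ko, C9ko was higher for 42 of the 49 genes and lower for 0 by limma with adjustment over all tested genes, where 7.43% of all genes were called higher and 2.18% lower. All 49 differences were positive, the lowest being 0.10, so no gene of the set could be called lower at any threshold. The single A8ko library is assumed in this fit to vary like the other groups. The called differences ran from 0.47 to 3.01 log2 units. CMPK2 differed by 3.01 (SE 0.10, limma adjusted p = 0.000105), RSAD2 by 3.0 (SE 0.13, limma adjusted p = 0.000207) and IFI27 by 2.30 (SE 0.13, limma adjusted p = 0.000395). SAMD9L, which was not called in C9ko against Control, differed by 1.68 (SE 0.11, limma adjusted p = 0.000525), and IRF1 by 0.52 (limma adjusted p = 0.0143). The 7 genes without a call were IFIT5, EIF2AK2, ADAR, STAT2, PARP12, LGALS3BP and SP110, with differences of 0.10 to 0.38. The median over the 49 genes was 0.94 log2 units, against 0.03 over all tested genes.

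**Figure D5:**
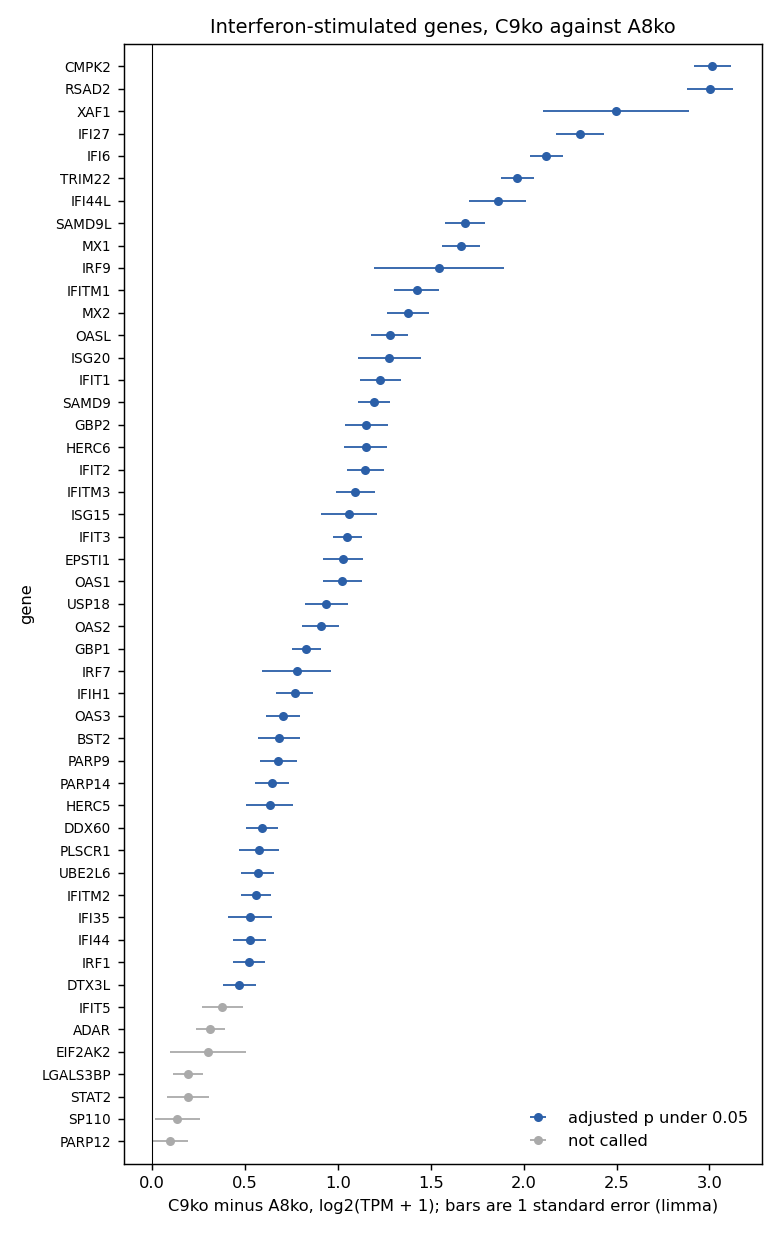
Difference of C9ko from A8ko in log2(TPM + 1) (x axis) for the 49 interferon-stimulated genes (y axis), with bars of 1 standard error from limma; blue points have an adjusted p under 0.05 and grey points do not. All 49 points lie to the right of 0, from 0.10 for PARP12 to 3.01 for CMPK2.

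A2ko and A8ko were compared with each other as single libraries, with no test. A2ko was at least 1 log2 unit above A8ko for 20 of the 49 genes (background 6.4%) and at least 1 below for 0 (3.13%). IRF9 differed by 3.28, IFI44L by 3.0, IFI6 by 2.43 and MX1 by 2.31. IRF1 was the lowest, at -0.24. Between C9ko and A2ko, RSAD2 and CMPK2 (4.08% of the set) were at least 1 log2 unit higher in C9ko (background 4.13%). IRF9 and IFI44L (4.08%) were at least 1 higher in A2ko (background 4.61%). Both shares were near those of all tested genes, so these counts do not set the 49 genes apart. No p-value is attached to these counts.

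The ligands, receptors and signalling proteins upstream of the set were read from a list of 41 genes, of which 33 passed the filter on low levels. Interferon transcripts on this list, which held IFNA1 as its only alpha interferon, were at or near 0. IFNG and IFNL3 were listed at 0 in every library, IFNB1 reached 0.133 TPM and IFNL1 0.861 TPM at most. IFNE, an epithelial type I interferon, was the exception, at 5.62, 4.68 and 5.21 TPM in Control, 6.88 TPM in A2ko, 3.9 TPM in A8ko, and 4.84 and 3.95 TPM in C9ko. In C9ko against Control, limma called 21 of the 33 higher (63.6%, against 22.0% of all tested genes) and 3 lower (9.09% against 7.42%), the latter being IFNLR1, STING1 and TLR3. In C9ko against A8ko, 9 were called higher (27.3% against 7.43%) and 1 lower (3.03% against 2.18%), and in A8ko the median difference of the list from Control was 0.11, near the 0.09 of all tested genes.

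Among receptors, IFNAR1 rose by 0.77 and IFNAR2 by 0.59 in C9ko, IFNGR1 by 0.70 and IFNGR2 by 0.82. In the same order, the A2ko differences were 0.14, 0.70, -0.21 and 0.27, and those of A8ko 0.28, 0.26, -0.37 and 0.72. IFNAR2 was thus higher in A2ko than in C9ko, and IFNGR2 was nearly as high in A8ko. JAK2 rose from 1.90, 2.01 and 2.09 TPM in Control to 5.40 and 5.15 TPM in C9ko, against 2.10 TPM in A2ko and 1.80 TPM in A8ko (difference 1.06, limma adjusted p = 0.000623). RIGI, the sensor of viral RNA ends, was at 26.9, 23.8 and 26.1 TPM in Control, 33.5 TPM in A2ko, 29.8 TPM in A8ko, and 75.8 and 73.8 TPM in C9ko (difference 1.51, limma adjusted p = 3.48e-05). MYD88, the adaptor of Toll-like receptors, was at 18.7, 18.8 and 19.3 TPM in Control, 21.7 TPM in A2ko, 20.5 TPM in A8ko, and 48.1 and 51.7 TPM in C9ko, a rise of 1.35 (limma adjusted p = 3.56e-05). ZBP1, a sensor of Z-form nucleic acid, was weak, at 0.565, 0.230 and 0.436 TPM in Control and 1.93 and 3.69 TPM in C9ko (difference 1.40, limma adjusted p = 0.00543). DHX58 (LGP2), which tunes RIGI and IFIH1, was at 11.9, 10.4 and 10.3 TPM in Control, 22.8 TPM in A2ko, 8.35 TPM in A8ko, and 13.1 and 15.2 TPM in C9ko. The order of its groups was that of MX1. SOCS3, a feedback inhibitor of JAK signalling, was at 26.2, 26.1 and 30.0 TPM in Control and at 54.3 TPM in A2ko, 57.9 TPM in A8ko, and 37.0 and 37.2 TPM in C9ko.

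A further list of 43 genes that interferons also induce, 41 of which passed the filter, gave 17 higher (41.5%, against 22.0% of all tested genes) and 1 lower (7.42% of all) in C9ko against Control by limma. In C9ko against A8ko it gave 25 higher (61.0% against 7.43%) and 0 lower (2.18% of all). The A8ko median of this list was -0.27, the A2ko median 0.03 and the C9ko median 0.16. TNFSF10 (TRAIL), a death ligand, was at 328, 313 and 321 TPM in Control, 434 TPM in A2ko, 98.5 TPM in A8ko, and 292 and 305 TPM in C9ko, so that A8ko was the lowest library there too. The chemokines CXCL10 and CXCL11, which draw T cells through CXCR3, went against the set in A8ko and A2ko. CXCL11 was at 8.21, 6.99 and 6.27 TPM in Control, 2.78 TPM in A2ko, 43.4 TPM in A8ko, and 51.6 and 55.7 TPM in C9ko. CXCL10 was at 11.2, 13.0 and 13.3 TPM in Control, 8.17 TPM in A2ko, 28.6 TPM in A8ko, and 33.4 and 37.0 TPM in C9ko. In C9ko they rose by 2.75 and 1.42 log2 units (limma adjusted p = 1.93e-05 and 0.000121), and the A8ko library was above the Control range for both while most of the 49 genes were below it. SHISA5 rose in C9ko as well, by 1.46 (limma adjusted p = 2.29e-05), with 57.0 to 61.3 TPM in Control and 168 and 164 TPM in C9ko. Other genes within 2 Mb of 4 of the strongest rises were high in C9ko too: the median was 0.89 for the 25 neighbours of MYD88, 0.87 for the 85 of SHISA5, 0.64 for the 20 of JAK2 and 0.42 for the 29 of RIGI. Their part in these rises was not tested. Outside the Control range by at least 1 log2 unit were also BATF2, HELZ2 and LAMP3 in A2ko, by 1.93, 1.10 and 1.14. Lower in A8ko to the same extent, besides TNFSF10, were ETV7 at -1.19, GBP4 at -1.11, CD38 at -1.24 and IDO1 at -1.58.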

How the data were processed

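RNA was measured in 9 samples of CAL27 cells. Per the labels' protocols, RNA was taken with TRIzol and dUTP libraries were made from total RNA selected for polyA. The authors deposited TPM values per Ensembl gene, on hg38 per the submitters' processing notes; the aligner, the quantifier and the use of strand are not given in the sources used here. The members, lists and tests were chosen with earlier results of these data known. The stretches printed, the counts without a fold minimum, the sums with overlapping genes and the counts of A2ko against A8ko or C9ko were chosen after values were seen.

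Values were analysed as log2(TPM + 1) for the 17100 genes with at least 1 TPM in at least 2 distinct libraries. All 4 groups were fitted together in limma 3.58.1 (R 4.3.3, trended eBayes), with Benjamini-Hochberg adjustment and a threshold of 0.05. The fit was tested on simulated data in which every library varied like Control. Such data cannot show how the lone A2ko and A8ko libraries vary. A2ko and A8ko, identical in pairs, entered as 1 library each and were described by range. Positions and overlaps come from GENCODE release 29 (GRCh38), and promoter windows of 300 bases from RefSeq. Replicate numbers were not taken to pair the samples: the labels give no shared batch, and the difference of replicates 1 and 2 in Control and C9ko correlated at r = -0.0372 over genes. This value rests on 2 pairs of libraries and cannot exclude a shared batch. Values in every library are given for genes of the set with a group mean of at least 5 TPM and among the 10 largest differences of a knockout, for the 4 transcription factors and for at least 1 gene of each role. From the other lists, genes at least 1 log2 unit from Control by the same calls are named. ISG15, IFITM2, IFITM3, BST2, LGALS3BP, EIF2AK2, EPSTI1, the receptors and IFNE are named beyond this rule, after their values were seen. Scaling by the median of ratios, other pseudocounts and filters, all 9 files, a replicate block and leaving out each library were tried. The result of 1 gene of the signalling list is not reported here.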

Additional observations from a re-analysis of the deposited data

Results flagged for a closer look

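The median difference of the 49 genes from Control lay on opposite sides of 0 in the knockouts: -0.44 in A8ko, 0.31 in A2ko and 0.45 in C9ko. The difference between C9ko and A8ko was tested gene by gene with limma, which called 42 of 49 higher in C9ko, where 7.43% of all tested genes were; the single A8ko library is assumed there to vary like the other groups. The difference between A2ko and A8ko was not tested.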

How the results depend on the processing

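Over 13 alternative settings, CMPK2, GBP1, GBP2, IFI6, IFIT1, IFIT2, IFIT3, IFITM1, MX2, OASL, RSAD2 and TRIM22 were called higher in C9ko in each. The same held for OAS2, OAS3, IFIH1, DDX60, ISG15, HERC5 and HERC6. The count of members called higher in C9ko was 21 with no filter on low levels, and the count called lower was 2 with scaling by the median of ratios and 2 with all 9 files. With the replicate block it was 25 higher, all among the 33, and 0 lower. Scaling moved the median differences to -0.53 in A8ko, 0.18 in A2ko and 0.33 in C9ko, while those of all genes moved to near 0. Leaving out 1 library at a time gave 24 to 31 higher and 1 lower in C9ko, 34 to 41 higher in C9ko against A8ko, and a C9ko median of 0.38 to 0.48. The A2ko median ran from 0.29 to 0.31 and the A8ko median from -0.50 to -0.41. Apart from scaling, the share of all tested genes called in the settings above is not given here. Their counts alone do not tell the set from the overall rate of calls. A limma fit that pools the spread called 22 higher (16.6% of all tested genes) and 1 lower (6.85%) in A2ko and 27 lower (6.88%) in A8ko. Differences in C9ko near 0 changed sign. With scaling, IRF1 went to -0.11, STAT2 to -0.0031 and PARP12 to -0.0239. EIF2AK2, PARP9, IFI35, EPSTI1 and LGALS3BP also turned negative, at -0.10, -0.02, -0.0018, -0.09 and -0.09. Scaling turned the sign of IFITM1, OAS2, EIF2AK2 and PLSCR1 in A2ko, and of IFIT5, DDX60, PARP12 and GBP1 in A8ko. In C9ko, IRF1 went to -0.0055 without Control replicate 2 and ran from -0.0205 to 0.0572 as libraries were left out. Depth is unknown, and 1 library each of A2ko and A8ko limits what can be said of them. The cause of these shifts was not tested.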

Other observations

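The chromosomal neighbours of the 49 genes, taken as tested genes within 2 Mb that are not in the set, had medians near those of all genes for most positions. The middle value of these neighbour medians was 0.07 in A8ko, 0.12 in A2ko and 0.10 in C9ko. Some stretches stood lower in A8ko together with the member: the 56 neighbours of IFITM3 on chromosome 11 had a median of -0.28, the 29 neighbours of TRIM22 -0.33, and the 33 neighbours of ISG20 on chromosome 15 -0.30. The 58 neighbours of IRF7, also on chromosome 11, were at -0.28, against -0.32 for IRF7. The 5 neighbours of RSAD2 were at -0.51 and the 4 of CMPK2 at -0.67, few enough for 1 gene to move them. Around IFI27 and MX1 the A8ko neighbours were at 0.18 and 0.17 while the genes themselves were at -1.73 and -1.32. SAMD9 and SAMD9L, at -1.38 and -1.79, had 21 neighbours with a median of 0.07. In C9ko the 20 neighbours of IFIT1 had a median of 0.37, against 0.65 for IFIT1. The 21 neighbours of IFIT5 were also at 0.37, and IFIT5 itself was at 0.39, near its stretch. IFIT2 and IFIT3, at 0.92 and 0.85, had 22 neighbours each with a median of 0.31. The part of such stretches in the differences was not tested.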
